A study of Danio rerio with 19 samples.

Results

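The 3 genes described here, *col1a1a* (ENSDARG00000012405), *col1a1b* (ENSDARG00000035809) and *col1a2* (ENSDARG00000020007), encode the chains of type I collagen in zebrafish. They were taken by these IDs from a raw count table of 32520 genes, and all 3 passed the filter on low counts, which kept 20979 genes. The table holds 19 bulk RNAseq libraries of tail fin tissue from WIK zebrafish at 4 days post-fertilisation (dpf), each made from 50 embryos. WT fish, *yap1* Crispants and *wwtr1* Crispants were sampled uninjured or 24 h after a severe injury given at 3 dpf, with 3 libraries in each group and 4 for injured *yap1* Crispants. The study asked how fins lacking Yap1 or Taz, the protein encoded by *wwtr1*, differ from WT at baseline and in regeneration. Crispants are F0 fish injected as embryos with Cas9 protein and guide RNAs, so each fish is a mosaic of mutant alleles. The sources used here do not say whether the WT fish sequenced were injected. The severe injury removes part of the tail fin and of the notochord, so injured and uninjured samples differ in the tissue they hold as well as in treatment.

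Type I collagen is the main fibril-forming collagen of bone, tendon, dermis and fin. Its chains fold in the endoplasmic reticulum into a triple helix, are secreted as procollagen, trimmed at both ends by proteases and then assembled and crosslinked into fibrils. In mammals the helix pairs COL1A1 chains with a COL1A2 chain. Zebrafish have duplicated the *COL1A1* gene, and both copies, *col1a1a* and *col1a1b*, are in use beside a single *col1a2*. In larval fins, fin fold mesenchyme, osteoblasts and skin cells are known sources of type I collagen. Yap1 and Taz are transcriptional co-activators held in check by the Hippo pathway, and collagen matrix stiffness is among the cues that act on them.

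Values are in CPM, the counts of a gene per 1000000 counts of its library, with library totals scaled by TMM, the trimmed mean of log ratios between libraries. Library totals ran from 28081131 to 80837847 counts, and the members held from 201 CPM upwards, so counting error was small beside the spread between libraries. Counts were not divided by transcript length, so the levels of the 3 genes are compared between libraries and not with one another. The transcript of *yap1* had 134 to 318 CPM across all libraries, and *wwtr1* had 0.444 to 1.24 CPM in WT and *wwtr1* Crispants against 0.973 to 7.46 CPM in *yap1* Crispants, so transcript levels did not check the Crispant labels. After the data were seen, 3 libraries were set apart, namely uninjured WT replicates 1 and 2 and injured *yap1* replicate 4. Below they are called the libraries that stood apart. They shared 28 genes that had at least 1 CPM in each of them and over 4 times the level of any other library. None of these is a type I collagen gene. The 28 genes were picked by that gap, so their summed level (106 to 362 CPM against at most 12.0 CPM elsewhere) follows from the choice. How many genes other sets of 3 libraries would share in this way was not counted. Values of the members and of their ratios that use the libraries that stood apart are also given without them. This is done where that changes a call, a direction or a value by over 1.5 times. Marker lists, pathway lists and counts of genes called were not run without them, so whether those results hold without them was not tested.

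*col1a1a* was the most variable of the members between groups and stood highest in uninjured *yap1* Crispants. Its level was 5488, 4033 and 15227 CPM in uninjured WT. Uninjured *yap1* Crispants had 37978, 38070 and 50174 CPM, and uninjured *wwtr1* Crispants had 5451, 12132 and 19169 CPM. Every uninjured *yap1* library was therefore above every other library of the series, and uninjured WT and *wwtr1* Crispants overlapped. How many genes lay above the whole series in this way was not counted. Of all genes, 8.27% lay higher without overlap in uninjured *yap1* Crispants against WT and 6.9% against *wwtr1* Crispants. After injury *col1a1a* had 6452, 3512 and 4274 CPM in WT, 19665, 8400, 7834 and 6657 CPM in *yap1* Crispants and 4761, 4161 and 3053 CPM in *wwtr1* Crispants. The first injured *yap1* library was above every other injured library, and the injured *yap1* group did not overlap either of the other injured groups. Of all genes, 3.19% lay higher without overlap against injured WT and 2.55% against injured *wwtr1* Crispants. In uninjured *yap1* Crispants *col1a1a* alone took 3.29% to 4.096% of all counts and ranked 3 or 4 among all genes by count, while in uninjured WT it took 0.386% to 1.44% and ranked from 6 to 14.

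*col1a1b*, the other copy of the mammalian *COL1A1* gene, followed *col1a1a* in outline. It had 385, 201 and 823 CPM in uninjured WT, against 2180, 1021 and 2604 CPM in *yap1* Crispants and 203, 737 and 703 CPM in *wwtr1* Crispants, both uninjured. The lowest uninjured *yap1* library was above the highest library of both other uninjured groups, as for 8.27% of all genes against WT and 6.9% against *wwtr1* Crispants. Injured libraries had 857, 289 and 396 CPM in WT, 1292, 1016, 714 and 529 CPM in *yap1* Crispants and 333, 411 and 249 CPM in *wwtr1* Crispants. Injured *yap1* and injured WT overlapped for this gene, and injured *yap1* lay above injured *wwtr1* in all libraries, as for 2.55% of all genes.

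*col1a2*, which encodes the remaining chain of the heterotrimer, did not share the rise in uninjured *yap1* Crispants. It had 3155, 1563 and 2133 CPM in uninjured WT, against 2314, 1138 and 2321 CPM in *yap1* Crispants and 1128, 3243 and 2844 CPM in *wwtr1* Crispants before injury, so the 3 uninjured groups overlapped. After injury it had 1325, 963 and 754 CPM in WT, 1784, 1499, 1180 and 641 CPM in *yap1* Crispants and 1507, 1231 and 1236 CPM in *wwtr1* Crispants. WT was the genotype in which all injured libraries were below all uninjured ones, as for 22.4% of all genes, and in both Crispants the states overlapped.

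**Figure D1:**
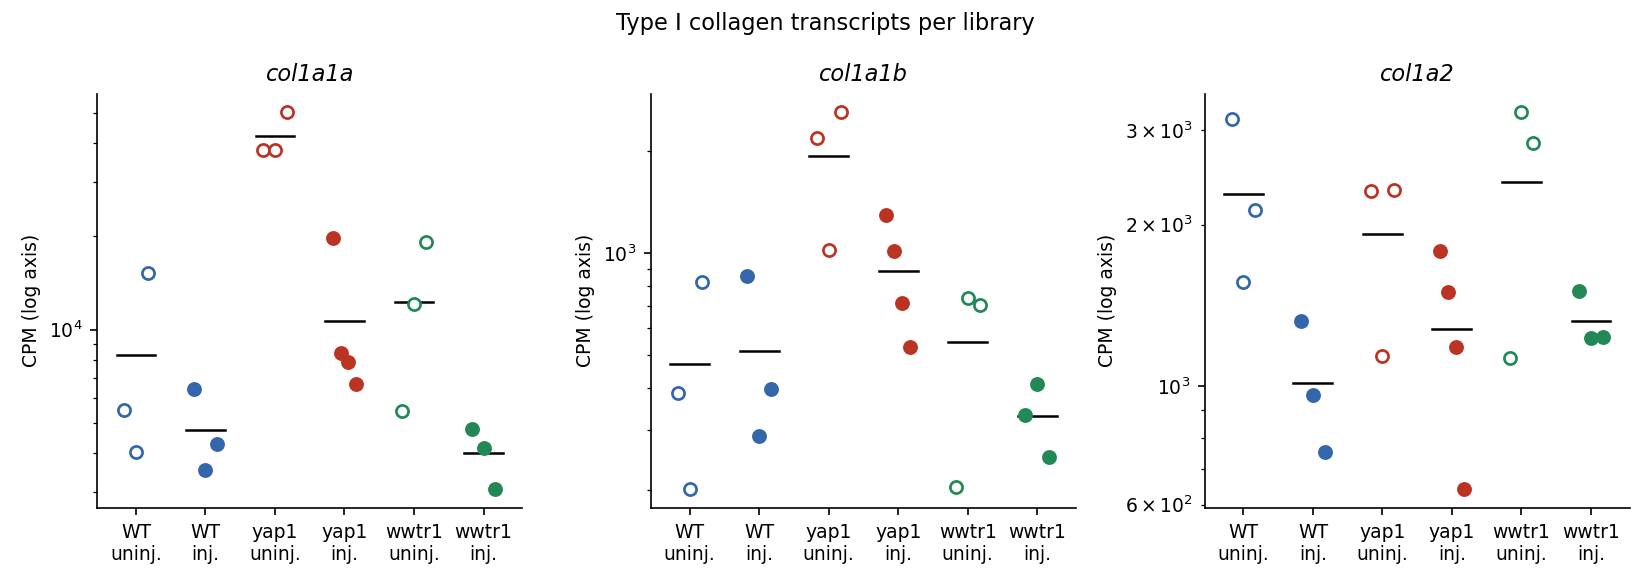
Level of each type I collagen gene in CPM on a log axis, with 1 point per library (open, uninjured; filled, injured) and a bar at the group mean; the vertical range differs between panels. The 3 uninjured *yap1* libraries lie between 37978 and 50174 CPM for *col1a1a*, above all others, while for *col1a2* they lie within the range of the other uninjured libraries.

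Ordered by group mean, *col1a1a* fell from 42074 ± 7015 CPM (SD, n = 3) in uninjured *yap1* Crispants to 12251 ± 6860 CPM in uninjured *wwtr1* Crispants, 10639 ± 6061 CPM in injured *yap1* Crispants (n = 4), 8249 ± 6086 CPM in uninjured WT, 4746 ± 1526 CPM in injured WT and 3992 ± 866 CPM in injured *wwtr1* Crispants. Uninjured *yap1* Crispants were separate from the next group in that order, and every later pair of neighbours overlapped. For *col1a1b* the order ran from 1935 ± 819 CPM in uninjured *yap1* Crispants through 888 ± 336 CPM in injured *yap1* Crispants to 331 ± 80.6 CPM in injured *wwtr1* Crispants, and every pair of neighbours overlapped. For *col1a2* the order ran from 2405 ± 1124 CPM in uninjured *wwtr1* Crispants to 1014 ± 289 CPM in injured WT, with the uninjured groups in the upper places, and again every pair of neighbours overlapped. Together the 3 genes took between 0.494% and 4.50% of a library's counts.

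Within groups the libraries high for one member were often high for another. *col1a1a* and *col1a1b* ranked the libraries in the same order in uninjured WT, injured WT and injured *yap1* Crispants, and in injured *yap1* Crispants *col1a2* had this order too. The lowest library for *col1a2* was also the lowest for *col1a1b* in uninjured WT, in both *yap1* groups and in uninjured *wwtr1* Crispants. Uninjured *yap1* replicate 2 was an exception for *col1a1a*, which it held at the level of replicate 1 while its *col1a1b* and *col1a2* were the lowest of that group. These orders are descriptions of libraries that share depth, RNA and dissection for all 3 genes.

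The first comparison asked how baseline expression in the fin differed between genotypes. In uninjured *yap1* Crispants *col1a1a* rose by a log2 fold change of 2.35 against WT (SE 0.52, adjusted p = 0.0186, edgeR quasi-likelihood, adjusted by Benjamini-Hochberg over all genes tested). Differentially expressed genes (DEGs) were those whose adjusted p was below 0.05 and whose log2 fold change was past 1 in either direction, and 2.2% of all genes were raised DEGs in this comparison against 0.0381% that were lowered ones. *col1a1b* had a log2 fold change of 2.04 (SE 0.56, adjusted p = 0.0676), which did not pass in edgeR and passed in DESeq2 (2.05, adjusted p = 0.00465). *col1a2* had -0.25 (SE 0.40, adjusted p = 0.939). Libraries of *yap1* Crispants and WT did not overlap for *col1a1a* and *col1a1b*, a separation that 8.27% of all genes showed in this direction.

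The size of the rise of *col1a1a*, and whether it passed, depended on which libraries were used. Uninjured WT replicate 3, with 15227 CPM, was the nearest to the Crispants, and replicates 1 and 2 were among the 3 libraries that stood apart. Without these 3 the log2 fold change of *col1a1a* was 1.46 (adjusted p = 0.794, edgeR), with 1 WT library left whose spread is assumed to be that of the other groups. Leaving out 1 library at a time gave 2.02 to 3.14, and the call was lost without WT replicate 1 (adjusted p = 0.127), WT replicate 2 (0.133) or *yap1* replicate 3 (0.0649). It was lost as well when only the compared groups were fitted (2.37, adjusted p = 0.0678). For *col1a1b* the range was 1.68 to 2.72, and it passed without WT replicate 3 (adjusted p = 0.0155).

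Of 92 tested markers of 11 cell types, 0 were DEGs in this comparison, where 2.2% of all genes were raised. The 14 genes listed as markers of fin fold mesenchyme, cells of the larval fin fold, summed to 83258 to 120320 CPM in uninjured *yap1* Crispants and 100294 to 106810 CPM in uninjured WT. How particular these 14 genes are to mesenchyme was not tested. Among them *and1*, which encodes a structural protein of the larval fin fold, had a log2 fold change of 0.01. The 9 osteoblast markers were low, with 23.3 to 28.8 CPM against 24.5 to 31.2 CPM in WT. Of those, *IFITM5* had no count in uninjured WT or *yap1* libraries, and *SP7*, the osteoblast transcription factor, had 5.27 ± 3.38 CPM against 4.02 ± 0.633 CPM (n = 3). No marker of superficial epidermis passed (median log2 fold change 0.42), but their summed levels did not overlap, with 86224 to 132211 CPM in *yap1* Crispants against 73921 to 85149 CPM in WT, and they were also high in uninjured *wwtr1* Crispants at 102594 to 119817 CPM. The 15 macrophage markers summed to 122 to 152 CPM against 108 to 110 CPM, the 4 neutrophil markers to 68.5 to 582 CPM against 73.5 to 149 CPM and the 8 pigment cell markers to 178 to 612 CPM against 81.05 to 328 CPM. The part of these cell types in the rise of *col1a1a* was not tested. In bulk tissue, a change in the number of cells of a type and a change in the RNA of each cell cannot be told apart.

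Uninjured *wwtr1* Crispants did not differ detectably from WT in the members. The log2 fold changes were 0.57 for *col1a1a* (SE 0.50), 0.22 for *col1a1b* (SE 0.54) and 0.07 for *col1a2* (SE 0.40), each with an adjusted p of 1 by edgeR. Their sign was not firm, as all 3 can turn by leaving out libraries. By edgeR 0% of genes were DEGs here in either direction, and DESeq2 called 23 genes. An unadjusted p under 0.05 was held by 816 of 20979 genes, less than the share of 0.05 that chance alone gives. Against uninjured *wwtr1* Crispants, *yap1* Crispants had log2 fold changes of 1.78 for *col1a1a* (SE 0.51, adjusted p = 0.156) and 1.82 for *col1a1b* (SE 0.55, adjusted p = 0.199), with no overlap for either gene. DESeq2 called both (1.78, adjusted p = 0.0158; 1.83, adjusted p = 0.0284). Raised DEGs were 0.829% and lowered DEGs 0.00477% of all genes in edgeR, and 6.9% of genes had all *yap1* libraries above all *wwtr1* ones. *col1a2* had -0.32 (SE 0.40, adjusted p = 1).

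The second comparison asked how the members responded to severe injury in each genotype. All 3 genotypes had lower mean *col1a1a* after injury, and it passed the test in both Crispants. In *yap1* Crispants *col1a1a* fell by 1.98 on the log2 scale (SE 0.47, adjusted p = 0.00697, edgeR), from a mean of 42074 to 10639 CPM, and the states did not overlap. Lowered DEGs were 4.44% of all genes there and 11.4% of genes had all injured libraries below all uninjured ones. This call held without any 1 library (-2.46 to -1.81). In *wwtr1* Crispants it fell by 1.62 (SE 0.51, adjusted p = 0.0353), from a mean of 12251 to 3992 CPM and with no overlap, where lowered DEGs were 4.74% and non-overlapping lower genes 18.1% of all genes. That call was lost in 5 of 6 leave-outs (all but *wwtr1* uninjured replicate 1), with values from -1.97 to -1.14. In WT the log2 fold change was -0.80 (SE 0.50, adjusted p = 0.267), and it was -0.0031 without uninjured WT replicate 3, the WT library with the most *col1a1a*. Without the 3 libraries that stood apart it was -1.68 (adjusted p = 0.0619, edgeR).

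*col1a2* passed in WT instead. There it fell by 1.17 on the log2 scale (SE 0.40, adjusted p = 0.0434, edgeR), from 2284 ± 806 CPM to 1014 ± 289 CPM (n = 3), with no overlap. Lowered DEGs were 7.79% of all genes in WT, and 22.4% of genes had non-overlapping lower levels. The call was lost without uninjured WT replicate 1 (-0.87, adjusted p = 0.190), uninjured WT replicate 3 (-1.22, 0.0716), injured WT replicate 2 (-1.13, 0.117) or injured WT replicate 3 (-0.96, 0.175), and without the 3 libraries that stood apart it was -1.07 (adjusted p = 0.164). In *yap1* Crispants *col1a2* had a log2 fold change of -0.59 (SE 0.37, adjusted p = 0.304) and in *wwtr1* Crispants -0.86 (SE 0.40, adjusted p = 0.160). The calls of *col1a2* in WT and of *col1a1a* in *wwtr1* Crispants were also lost without a filter on low counts (adjusted p = 0.0527 and 0.0521) and on total counts without TMM (-0.995 and -1.28, adjusted p = 0.113 and 0.0925).

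*col1a1b* passed in no genotype. Its log2 fold changes after injury were 0.13 in WT (SE 0.54, adjusted p = 0.890), -1.12 in *yap1* Crispants (SE 0.50, adjusted p = 0.135) and -0.73 in *wwtr1* Crispants (SE 0.54, adjusted p = 0.405). In WT the sign turned without uninjured replicate 2 (-0.23) or injured replicate 1 (-0.46). Without the 3 libraries that stood apart it was -0.68.

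Cell type markers also differed between states. Of the 92 tested, 20 were lowered and 13 raised in WT (7.79% and 8.24% of all genes), 15 and 10 in *yap1* Crispants (4.44% and 5.46%) and 14 and 12 in *wwtr1* Crispants (4.74% and 6.26%). The summed fin fold mesenchyme markers went from 100294 to 106810 CPM in uninjured WT to 22147 to 27977 CPM in injured WT, with 7 of 14 markers lowered, and reached 28407 to 58806 CPM in injured *yap1* Crispants and 22615 to 28763 CPM in injured *wwtr1* Crispants (3 of 14 lowered in each). The 10 notochord markers went from 3864 to 7953 CPM to 493 to 1569 CPM in WT, with 7 lowered. The 8 basal epidermis markers went from 25905 to 39047 CPM to 12954 to 17678 CPM, with 2 lowered. The macrophage markers went the other way, from 108 to 110 CPM to 325 to 474 CPM in WT, with 9 of 12 tested markers raised. Of 4 genes listed as neutrophil markers, 3 were raised. *mmp13a* is among these and is also counted on the list of collagenases, so they are not particular to neutrophils. Other symbols were also placed on both a marker list and a pathway list below, among them *col2a1a*, *sp7*, *runx2b*, *scxa*, *mkxa*, *tnc* and *mmp9*. Marker and pathway results are therefore not separate for such genes. Tendon had 2 of 8 markers lowered in WT, pigment cells 1 of 7, osteoblasts 1 lowered and 1 raised of 7, and superficial epidermis, skeletal muscle and endothelium 0, while superficial epidermis had 5 of 9 lowered in *yap1* and 2 of 9 in *wwtr1* Crispants. The part of these cell types in the lower collagen levels was not tested.

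The test of the difference between injury responses found none for the members. The response of *yap1* Crispants minus that of WT was -1.19 for *col1a1a* (SE 0.68, adjusted p = 0.697), -1.25 for *col1a1b* (SE 0.73, adjusted p = 0.706) and 0.58 for *col1a2* (SE 0.55, adjusted p = 0.832) by edgeR. For *wwtr1* Crispants minus WT it was -0.82, -0.86 and 0.31, each with an adjusted p of 1. Without the 3 libraries that stood apart, the *yap1* minus WT values were -0.13 for *col1a1a*, -0.26 for *col1a1b* and 0.71 for *col1a2*, and the *wwtr1* minus WT values 0.06, -0.05 and 0.21. A member that passed in one genotype and not in another was thus not shown to respond differently. By edgeR 0% of all genes passed in either direction for *yap1* minus WT or for *wwtr1* minus WT. For *yap1* minus WT, 1711 of 20979 genes had an unadjusted p under 0.05, above the share of 0.05 that chance alone gives. DESeq2 called 137 there. For *wwtr1* minus WT, 584 genes had such a p, below that share, and DESeq2 called 1.

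No member passed in a comparison of injured genotypes. Injured *yap1* Crispants had log2 fold changes against injured WT of 1.16 for *col1a1a* (SE 0.48, adjusted p = 0.514), 0.79 for *col1a1b* (SE 0.51, adjusted p = 0.731) and 0.33 for *col1a2* (SE 0.38, adjusted p = 0.863). Only *col1a1a* was free of overlap, as 3.19% of all genes were in that direction. Against injured *wwtr1* Crispants the values were 1.41 for *col1a1a* (SE 0.48, adjusted p = 0.648) and 1.42 for *col1a1b* (SE 0.52, adjusted p = 0.728), both without overlap (2.55% of all genes), and -0.05 for *col1a2*. Injured *wwtr1* Crispants against WT had -0.25, -0.63 and 0.39 for *col1a1a*, *col1a1b* and *col1a2*. edgeR called 0% of all genes raised or lowered in these 3 comparisons. An unadjusted p under 0.05 was held by 1731, 1158 and 1047 of 20979 genes. Chance alone gives a share of 0.05, which 1158 and 1047 are near and 1731 exceeds. DESeq2 called 164, 171 and 19 genes, none of them a member.

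**Figure D2:**
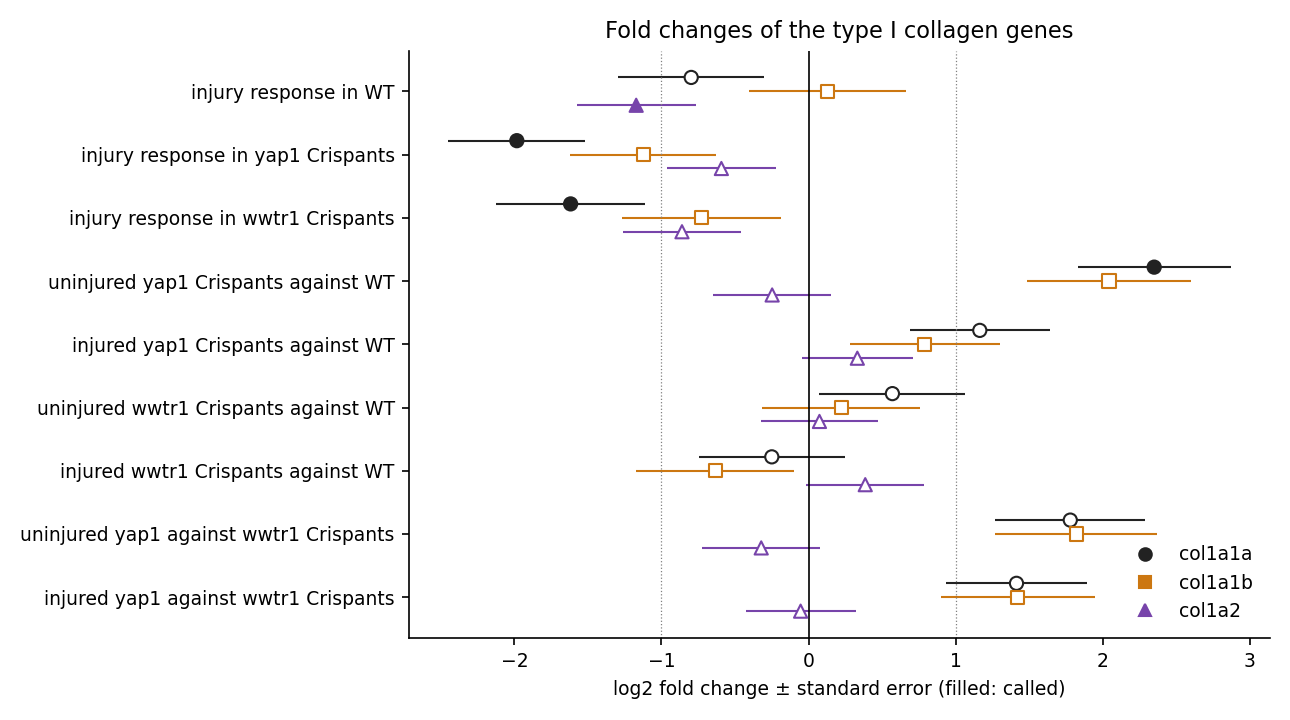
Log2 fold change of each member in 9 comparisons from the edgeR fit of all groups, the first-named group against the second and injured against uninjured for the injury responses; bars are ± 1 standard error, filled symbols passed the DEG thresholds and dotted lines mark a log2 fold change of -1 and 1. *col1a1a* and *col1a1b* lie at 2.35 and 2.04 in uninjured *yap1* Crispants against WT, where *col1a2* is at -0.25.

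Ratios between members within a library do not depend on how libraries are scaled. Their absolute size includes the lengths of the transcripts, so only their change between libraries is read. The count of *col1a1a* per count of *col1a1b* was 14.2, 20.1 and 18.5 in uninjured WT and 7.53, 12.2 and 10.8 in injured WT. It was 17.4, 37.3 and 19.3 in uninjured *yap1* Crispants and 15.2, 8.27, 11.0 and 12.6 after injury, and 26.8, 16.5 and 27.3 in uninjured *wwtr1* Crispants and 14.3, 10.1 and 12.2 after injury. Every injured library was below every uninjured library of its own genotype. The difference in log2 ratio, injured minus uninjured, was -0.81 in WT, -1.02 in *yap1* Crispants and -0.92 in *wwtr1* Crispants, and -0.91 stratified by genotype, or 1.89-fold fewer counts of *col1a1a* per count of *col1a1b* (two-sided exact permutation test over 14000 arrangements, p = 7.14e-05, which is the least they can give; adjusted p = 0.000571 over 8 ratio tests). Leaving out any 1 library kept it between -0.99 and -0.80, and without the 3 libraries that stood apart it was -0.96 (exact p = 0.000625, the smallest then possible). Within a genotype the smallest possible two-sided exact p was 0.1 for 3 against 3 libraries and 0.0286 for 4 against 3, and each genotype reached it. Genotypes overlapped in this ratio in both states. As *col1a1a* and *col1a1b* are close paralogs, reads that match both could blur the ratio.

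The other ratio set the summed *col1a1a* and *col1a1b* counts against *col1a2*, the balance between the duplicated gene pair and the remaining chain. Most of it comes from *col1a1a*, of which uninjured WT had 1.74, 2.58 and 7.14 counts per count of *col1a2*, uninjured *yap1* Crispants 16.4, 33.4 and 21.6, and uninjured *wwtr1* Crispants 4.83, 3.74 and 6.74. After injury there were 4.87, 3.65 and 5.67 in WT, 11.0, 5.61, 6.64 and 10.4 in *yap1* Crispants and 3.16, 3.38 and 2.47 in *wwtr1* Crispants. The uninjured *yap1* libraries were above all others. *col1a1b* alone also stood high against *col1a2* there, with 0.942, 0.897 and 1.12 counts per count against 0.122, 0.128 and 0.386 in uninjured WT and 0.180, 0.227 and 0.247 in uninjured *wwtr1* Crispants.

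Genotypes were compared in these ratios by tests chosen after the values were seen, 18 in all. The log2 ratio of summed *col1a1a* and *col1a1b* to *col1a2* was higher in *yap1* Crispants than in WT by 2.83 uninjured, a 7.10-fold difference, and by 0.78 injured. Neither difference passed by itself (exact p = 0.1, the smallest possible, and 0.0571, each with adjusted p = 0.225). Without the 3 libraries that stood apart the differences were 1.66 uninjured, a 3.17-fold difference from the 1 WT library left, and 0.66 injured. Stratified by state the ratio was higher by 1.80 (two-sided exact permutation test, p = 0.00286, adjusted p = 0.0257), with all *yap1* libraries above all WT libraries of the same state, and it stayed between 1.59 and 2.09 without any 1 library and was 1.16 without the 3 (exact p = 0.0125, the smallest then possible). Against *wwtr1* Crispants it was 4.60-fold higher uninjured and 2.73-fold higher injured. Neither passed after adjustment (exact p = 0.1 and 0.0286, the smallest possible, adjusted p = 0.225 and 0.171). Stratified by state it was higher by 1.83 on the log2 scale (exact p = 0.00143, the smallest possible, adjusted p = 0.0257). That difference was 1.77 without the 3 libraries (exact p = 0.005). *wwtr1* Crispants and WT differed by -0.02 stratified by state (exact p = 0.935), a mean of differences of opposite sign. The uninjured difference was 0.62 with overlap. The injured one was -0.67, with all *wwtr1* libraries below all WT libraries (exact p = 0.1, the smallest possible). Without the 3 libraries the uninjured difference turned to -0.54 and the stratified one was -0.60 (exact p = 0.05). Between states, the log2 ratio changed by 0.61 in WT with overlap (-0.55 against uninjured replicate 3 alone, the sign turning without the libraries that stood apart), by -1.44 in *yap1* Crispants and by -0.68 in *wwtr1* Crispants, the Crispants without overlap. Stratified over genotypes the change was -0.50 (exact p = 0.134), and it passed without uninjured WT replicate 1 (-0.65, exact p = 0.0377) or without the 3 libraries (-0.93, exact p = 0.00188).

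**Figure D3:**
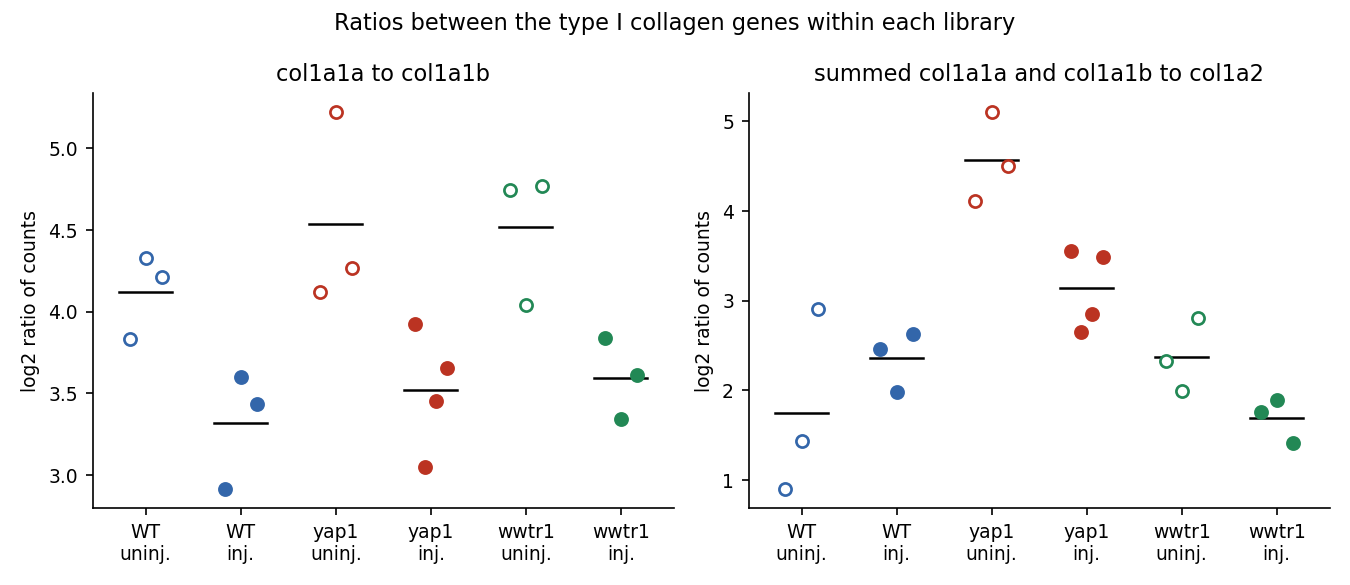
Log2 ratio of counts within each library, *col1a1a* to *col1a1b* (left) and summed *col1a1a* and *col1a1b* to *col1a2* (right), with 1 point per library (open, uninjured; filled, injured) and a bar at the group mean. On the left every injured library lies below the uninjured ones of its genotype, with a difference of -0.91 stratified by genotype, and on the right the *yap1* Crispants lie above WT of the same state, with a difference of 1.80 stratified by state.

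The rest of the type I collagen pathway was read from 8 lists with 117 genes past the filter. After injury in WT, 36 of them were lowered (30.8%, against 7.79% of all genes) and 9 raised (7.69%, against 8.24%). In *yap1* Crispants 17 were lowered (14.5%, against 4.44% of all genes) and 6 raised (5.13%, against 5.46%), and in *wwtr1* Crispants 21 were lowered (17.9%, against 4.74%) and 7 raised (5.98%, against 6.26%). In uninjured *yap1* Crispants against WT, where *col1a1a* rose, 2 were raised (1.71%, against 2.2% of all genes) and none lowered. Gene symbols are printed as the reference table gives them, and where a symbol covers several paralogs each ID counts as a gene.

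Among the 12 other fibrillar collagen genes, 5 were lowered by injury in WT and 3 in each Crispant, and none were raised. Their median log2 fold change in WT was -1.24, against -0.06 over all genes tested. The paralogs of *COL2A1*, the cartilage and notochord collagen, fell, with log2 fold changes of -1.51 (ENSDARG00000011407) and -2.82 (ENSDARG00000069093), and *COL11A1* (ENSDARG00000026165) and *COL11A2*, which encode chains of type XI collagen, had -1.70 and -2.75. In injured *yap1* Crispants against WT the list's median was 1.08, against 0.01 over all genes, and 0 of its 12 genes were DEGs. In uninjured *yap1* Crispants against WT the list's median was 0.68, against -0.05 over all genes. Its 1 DEG there was *col5a3b*, a type V collagen gene named after its value was seen, which rose by 2.63 (SE 0.58, adjusted p = 0.0173, edgeR) and also passed against uninjured *wwtr1* Crispants (2.55).

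Of 27 genes that fold and modify collagen chains, 4 were lowered in WT and 1 in each Crispant. *PLOD1*, a lysyl hydroxylase, fell from 56.9 ± 3.20 to 26.5 ± 2.67 CPM (n = 3). *P3H2*, a prolyl hydroxylase, had a log2 fold change of -1.94, and the collagen galactosyltransferases *colgalt2b* and *colgalt2a* had -1.46 and -2.39. The list's median was -0.28. Procollagen processing had 6 of 11 lowered in WT, 3 lowered and 1 raised in *yap1* Crispants and 4 lowered in *wwtr1* Crispants. The N-proteinases *adamts2b* and *ADAMTS3* fell, with log2 fold changes of -2.11 and -2.38, as did the C-proteinase *BMP1* (ENSDARG00000028071) with -1.67 and its enhancer *pcolcea* with -1.17. Crosslinking enzymes had 4 of 10 lowered in WT, with a list median of -2.02, and 3 and 4 in *yap1* and *wwtr1* Crispants. *LOX*, *LOXL1*, *LOXL2* (ENSDARG00000044074) and *LOXL3* (ENSDARG00000039563), amine oxidases that start the crosslinks, had log2 fold changes of -3.15, -3.46, -3.94 and -2.58. In uninjured *yap1* Crispants *LOX* had 37.1 ± 17.6 CPM against 9.58 ± 1.14 CPM in WT (n = 3), a log2 fold change of 1.96 that did not pass. The list as a whole did not share this rise. Its median there was -0.08, against -0.05 over all genes tested, and 0 of its 10 genes were DEGs. In injured *yap1* Crispants against WT its median was 1.07, against 0.01 over all genes tested, again with 0 DEGs.

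The 21 genes of the fibril-associated matrix were mixed, with 3 raised and 6 lowered in WT, 2 and 4 in *yap1* Crispants and 2 and 5 in *wwtr1* Crispants. Fibronectin, a matrix protein of wounds on which collagen fibrils form, rose by 5.37 through *FN1* (ENSDARG00000006526) and by 1.21 through its paralog (ENSDARG00000019815). *POSTN* (ENSDARG00000043806), *THBS4* (ENSDARG00000020072) and *FMOD* (ENSDARG00000044895), all matrix proteins that bind collagen, had log2 fold changes of -5.59, -3.94 and -3.76. Type XIV collagen, which binds the fibril surface, split between its copies. *COL14A1* (ENSDARG00000005762) rose by 1.86 and *col14a1b* had -2.49. *COL14A1* also rose in uninjured *yap1* Crispants, from 1.89 ± 0.946 to 12.4 ± 4.41 CPM (n = 3; log2 fold change 2.71, adjusted p = 0.00206, edgeR).

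Of 9 genes on the list of collagenases, gelatinases and their inhibitors, 5 were raised in WT (8.24% of all genes), 2 in *yap1* Crispants (5.46%) and 4 in *wwtr1* Crispants (6.26%), and none were lowered. The others did not pass. *CTSK*, the collagen-degrading cathepsin, rose by 4.46, the collagenases *mmp13a* and *mmp13b* by 3.06 and 1.64, and the inhibitor *TIMP2* (ENSDARG00000075261) by 2.41. Collagen receptors had 1 of 14 raised and 6 lowered in WT, and 1 raised and 1 lowered in each Crispant. *ITGB1* (ENSDARG00000022689), the shared beta chain of collagen-binding integrins, had a log2 fold change of -1.31, and the *DDR2* paralogs, discoidin domain receptors for fibrillar collagen, had -3.20 (ENSDARG00000058695) and -1.99 (ENSDARG00000100693). *ITGA11* (ENSDARG00000036086), a collagen-binding integrin alpha chain, had -3.53. The alpha chain gene *itga2.1* was the raised one, from a mean of 0.00874 CPM in uninjured WT, a level under that of 3 counts. Of 13 transcription factor genes of collagen-producing cells, 5 were lowered in WT, 2 in *yap1* Crispants and 3 in *wwtr1* Crispants. *twist1a*, *twist2*, *twist3* and *PRRX1* (ENSDARG00000042027), factors of mesenchyme, had log2 fold changes of -1.46, -2.81, -2.92 and -2.13.

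**Figure D4:**
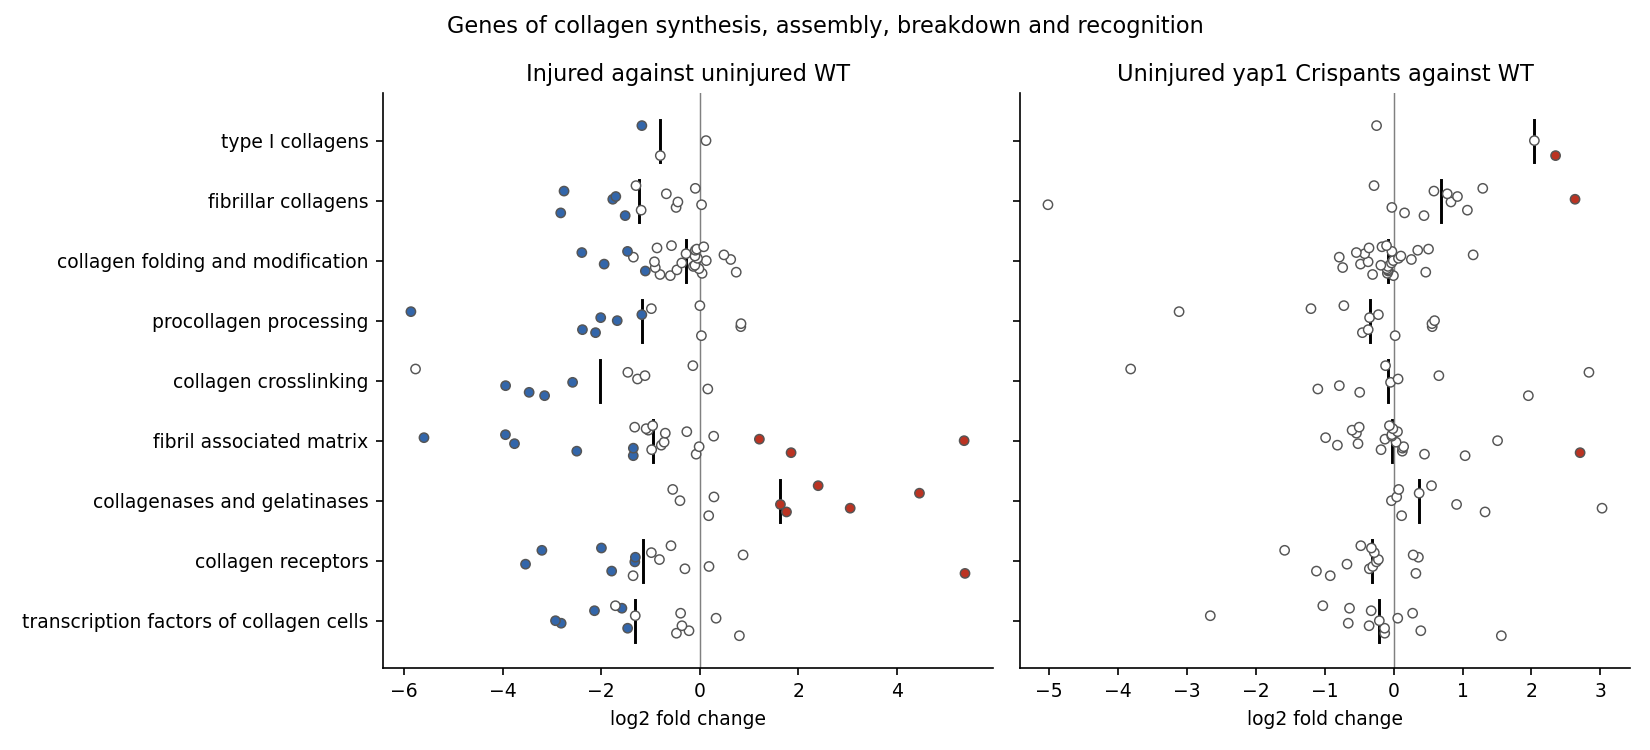
Log2 fold change of the 3 type I collagen genes and of the 117 tested genes of 8 pathway lists in injured against uninjured WT (left) and uninjured *yap1* Crispants against WT (right), with 1 point per gene (red, raised DEG; blue, lowered DEG; open, not passing) and a bar at the median of each list. The left panel has 36 lowered and 9 raised list genes and the right panel 2 raised ones.

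The genes whose pattern was most like the members were sought by Pearson's r with the mean log2 CPM of the 3 genes over the 19 libraries, a description in which the libraries share groups and depth. The members did not share a single pattern, with r = 0.881 between *col1a1a* and *col1a1b*, 0.469 between *col1a1a* and *col1a2* and 0.387 between *col1a1b* and *col1a2*. A gene close to their mean therefore need not be close to *col1a2*. The closest genes were *COL5A1* (ENSDARG00000012593, r = 0.911), *CSGALNACT1* (0.904), *COL11A1* (ENSDARG00000026165, 0.885), *col18a1a* (0.876) and *col9a3* (0.873). *COL5A1*, a type V collagen gene, had mean levels of 233 CPM in uninjured *yap1* Crispants, 111 CPM in uninjured WT and 48.8 CPM in injured WT. With group means taken out, so that only differences between libraries of one group remain, the closest were *HMGA2* (0.958), *COL12A1* (ENSDARG00000078322, 0.944), *SNCAIP* (0.928), *appa* (0.903) and *DHX9* (0.900).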

How the data were processed

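Bulk RNAseq of zebrafish tail fins was analysed from the raw counts per gene that the authors deposited, 1 table of 19 libraries. The authors used Trim Galore for adapters, BWA-MEM for alignment, which does not model introns, SAMtools for sorting and HTSeq for counting on GRCz11; versions and the use of strand in counting are not given in the sources used here, so reads shared by paralogs or overlapping genes are an uncertainty. No transcript lengths or sequences were used here.

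Groups came from the sample labels. Counts past filterByExpr (20979 of 32520 genes) were scaled by TMM and fitted in 1 quasi-likelihood model of the 6 groups with edgeR 4.0.16 in R 4.3.3 (prior count 0.125), with Benjamini-Hochberg adjustment over all genes. A standard error is the log2 fold change divided by the root of its F statistic. DESeq2 1.42.0, which the authors used, was an alternative, as were RLE size factors, total counts, TMM without the 100 most counted genes, no filter, the compared groups alone, the adjusted p alone, a prior count of 2, a replicate block and each library left out in turn. Ratios were tested by two-sided exact permutation of libraries. In a simulation over 20979 genes, of which 200 differed by 2 on the log2 scale, the fit found 170 of them and 11 others for WT injury, and 169 and 3 others for uninjured *yap1* Crispants against WT. Library totals ran from 28081131 to 80837847 counts; 3 counts, the floor, are 0.0367 to 0.0966 CPM, for counting error only. No libraries of a group agreed within sampling noise. Labels call replicates biological but do not say whether they came from separate clutches, so p-values measure the spread between these samples.

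The reference table named 29201 gene IDs. Symbols of the pathway lists were matched as asked or in other case (68 genes), or by family symbol without the paralog letter (52 genes), with 3 symbols not matched. Marker lists were matched in the same way, so a symbol could bring in several genes or none. The 6 macrophage symbols gave 15 genes and the 6 neutrophil symbols gave 4. From each list, up to 4 raised and 4 lowered DEGs with the smallest adjusted p in WT injury were named, and the 5 genes most like the members by each measure. The members and lists were chosen with earlier results of these data known.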

Additional observations from a re-analysis of the deposited data

Results flagged for a closer look

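*col1a1a* in injured *yap1* Crispants had 1 library far from the other 3. Replicate 1 had 19665 CPM, and the others 8400, 7834 and 6657 CPM. The gap to the next library was 0.866 of the group's whole range, above Dixon's 95% critical value of 0.829 for 4 samples. Chance flags about 1 in 20 groups, and 5 measures were screened. The same library was the highest of its group for *col1a1b* (1292 CPM) and *col1a2* (1784 CPM), at gaps of 0.362 and 0.471.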

How the results depend on the processing

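Under 9 other settings with all libraries of a comparison, 5 member results lost a call, 3 gained one and 2 reversed. The other 287, mostly not calls, kept direction and side of the threshold. Adjusted p alone and a prior count of 2 hardly moved a member. Only *col1a1a* in *yap1* injury kept its call throughout. On total counts without TMM, which moved the median log2 fold change of all genes by 0.16 in WT injury, 0.29 in *yap1* injury, 0.32 in *wwtr1* injury and -0.13 in uninjured *yap1* Crispants against WT, *col1a2* in WT injury was -0.995 (reported -1.17), *col1a1a* in *wwtr1* injury -1.28 (reported -1.62) and *col1a2* in uninjured *wwtr1* Crispants against WT -0.012 (reported 0.07). That scaling made the raised share of DEGs 64.7%, 80.2% and 82.5% in WT, *yap1* and *wwtr1* injury, against 51.4%, 55.1% and 56.9% with TMM. With no filter the calls of *col1a2* in WT injury (-1.17) and *col1a1a* in *wwtr1* injury (-1.62) were lost, with more genes tested. DESeq2 gained *col1a1b* in uninjured *yap1* against WT (2.05) and *col1a1a* (1.78) and *col1a1b* (1.83) in uninjured *yap1* against *wwtr1*. With only the compared groups, so fewer libraries, *col1a1a* in uninjured *yap1* against WT was 2.37 and lost its call. Otherwise the cause was not tested.

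Replicate numbers 1 to 3, shared by all groups, may pair some libraries. Same-numbered deviations correlated at -0.22 to 0.41 (9 of 27 over 0.1). Over the 9 comparisons a library correlated best with its own number in 23 of 54 cases. Cases had 3 candidates each and shared libraries, so they are not independent. Such cases were 0 of 6 in *wwtr1* injury and 6 of 6 in injured *yap1* against *wwtr1*. Whether 23 exceeds chance was not tested. A replicate block changed no call of a member and turned *col1a2* in injured *yap1* against *wwtr1* Crispants to 0.17 (reported -0.05). It called 1866 genes for *yap1* injury (2078 without) and 517 for uninjured *yap1* against WT (469 without).

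Without the 3 libraries that stood apart, an alternative chosen after seeing the data, calls were lost for *col1a1a* in uninjured *yap1* Crispants against WT (1.46) and *col1a2* in WT injury (-1.07). Direction turned for *col1a1b* in WT injury (-0.68), *col1a1a* and *col1a1b* in uninjured *wwtr1* Crispants against WT (-0.32 and -0.59), *col1a2* in injured *yap1* against *wwtr1* Crispants (0.17) and *col1a1a* in the *wwtr1* minus WT response (0.062). In the ratio of summed *col1a1a* and *col1a1b* to *col1a2*, the change on injury was -0.55 in WT, which reversed it, -1.55 in *yap1* Crispants and -0.93 stratified by genotype, and in the ratio of *col1a1a* to *col1a1b* it was -1.06 in *yap1* Crispants, where 3 against 3 libraries cannot give a p under 0.1.

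Leaving out 1 library at a time gave these ranges. In injury they were -0.46 to 0.81 for *col1a1b* in WT, -1.41 to -0.87 for *col1a2* in WT and -1.97 to -1.14 for *col1a1a* in *wwtr1* Crispants. In uninjured *yap1* against WT they were 2.02 to 3.14 for *col1a1a*, 1.68 to 2.72 for *col1a1b* and -0.46 to 0.057 for *col1a2*. Against WT, uninjured *wwtr1* Crispants had -0.14 to 0.90 for *col1a1b* and -0.20 to 0.41 for *col1a2*, and injured ones -0.43 to 0.036 for *col1a1a*. *col1a2* had -0.26 to 0.17 in injured *yap1* against *wwtr1* Crispants and -0.028 to 0.59 in the *wwtr1* minus WT response. The change on injury in the ratio of summed *col1a1a* and *col1a1b* to *col1a2* was -0.65 to -0.31 stratified by genotype and -1.67 to -1.18 in *yap1* Crispants, and in the ratio of *col1a1a* to *col1a1b* it was -1.22 to -0.67 in *yap1* Crispants, where fewer arrangements cannot give a p under 0.05.

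Counts of DEGs over all genes moved by more than 1.5 times with DESeq2 for uninjured *yap1* Crispants against WT (774, reported 469) and against *wwtr1* Crispants (435, reported 175), with only the compared groups for *yap1* injury (1322, reported 2078), uninjured *yap1* Crispants against WT (245) and against *wwtr1* Crispants (328), and with the adjusted p alone for *yap1* and *wwtr1* injury (3483 and 3505, reported 2078 and 2308). Leave-outs gave 145 to 634 for uninjured *yap1* Crispants against WT, 0 to 150 against *wwtr1* Crispants and 1360 to 2316 for *yap1* injury. Where no gene was called, leave-outs gave at most 266, in the *yap1* minus WT response. Ratios per kilobase of transcript were not run. The members had at least 201 CPM in every library.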
